A study of Mus musculus with 12 samples.

Results

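The step from the first to the second sorted population of hemogenic endothelium, HE1 to HE2, was measured in mouse cells that received no doxycycline. It was compared over 4 of the 12 libraries of the study, the 2 NoDox_HE2 and the 2 NoDox_HE1 libraries, and covered all 13316 genes that passed the filter on low values. The cells were derived from A2lox.cre mouse embryonic stem cells that carry RUNX1-EVI1, a leukaemia fusion gene, under a doxycycline-inducible promoter, so the groups without doxycycline carry the uninduced construct too. Embryoid bodies were grown for 3.25 days, cells with surface FLK1 (the VEGF receptor encoded by Kdr) were sorted and put into blast culture with VEGF, IL-6 and D4T conditioned medium, and HE1, HE2 and HP cells were sorted from that culture. The groups with doxycycline, used here only for comparison, received 0.5 µg/ml for 18 h from day 1 of the culture. Each group has 2 biological replicates, which the labels describe no further, so p-values measure the spread between these samples. The gates of the sort, the number of clones behind the cells and whether RNA of the construct counts under Runx1 or Mecom remain not given in the sources used here.

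Blood cells of the embryo arise from hemogenic endothelium, endothelial cells that line vessels and then lose their junctions, round up and start blood genes. RUNX1 is required for this endothelial-to-haematopoietic transition, and it acts with other blood factors such as SPI1 (PU.1), MYB and GFI1B while endothelial factors of the SOX and Notch pathways are shut off. In cultures of this kind the successive populations are commonly told apart by surface KIT, TIE2 (encoded by Tek) and CD41 (encoded by Itga2b). The values of Kit, Tek and Itga2b are therefore given as descriptions only, also where they count in marker sums and gene lists.

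Marker levels were those of an endothelial population in both groups, with more RNA of blood genes in HE2. All 9 endothelial markers (Cdh5, Pecam1, Kdr, Tek, Tie1, Esam, Cldn5, Emcn and Erg) reached 1 FPKM in each of the 4 libraries. FPKM scales the fragments of a gene by its transcript length and by the size of the library, so levels of different genes can be compared. Their summed level was 1301 and 1835 FPKM in HE1 replicates 1 and 2 and 721 and 1089 FPKM in HE2, against 167.4 and 140.7 FPKM in the HP libraries. The 9 markers of blood progenitors (Ptprc, Spn, Itga2b, Itgb3, Kit, Gfi1b, Spi1, Myb and Gata1) summed to 109.0 and 84.5 FPKM in HE1 and 570.6 and 452.9 FPKM in HE2. Of these sums in HE1, Itga2b held 51.1 and 29.2 FPKM and Kit 40.5 and 43.6 FPKM. In HE2, Itga2b held 165.9 and 94.9 FPKM and Kit 66.3 and 74.2 FPKM. The endothelial sums include Tek and also Kdr, whose product FLK1 was sorted for before the culture. Ptprc, which encodes the leukocyte antigen CD45, was listed at 0 in both HE1 libraries. Replicate 1 was below replicate 2 in all 9 endothelial markers, in HE1 and in HE2. In bulk samples, fewer cells of a type and less RNA per cell cannot be told apart.

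The libraries differed in ways the groups do not explain. Depth relative to the median library, read from the steps of low FPKM values, was 0.971 to 1.378 in the 4 libraries, and the FPKM values summed to between 468326 and 575390. HE1 replicate 1 held 13680 FPKM of Lars2, against 24.0 to 168 FPKM in the other 3, and 8.99% of its FPKM lay in 3 features (Lars2 and 2 small or predicted ones), against 0.39% to 0.59%. Counts of calls without this library are given below for the lists in which they moved most.

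Between HE1 and HE2, 1348 of the 13316 tested genes (10.1%) passed an adjusted p below 0.05. Of these, 755 (5.67%) were higher in HE2 and 593 (4.45%) were lower. The groups did not overlap in any of the 1348, which held for 63.2% of all tested genes. The higher genes had a median log2 fold change of 1.06, and 98 of them changed by more than 4-fold and 20 by more than 8-fold. The lower genes had a median of −1.08, with 11 beyond 4-fold and none (0) beyond 8-fold. In 178 of the higher genes both HE1 libraries were under 1 FPKM, whereas both HE2 libraries were under 1 FPKM in 79 of the lower genes. The medians of rises and falls were thus of similar size, while changes beyond 4-fold were mostly rises, and most falls left the gene expressed in HE2.

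**Figure D1:**
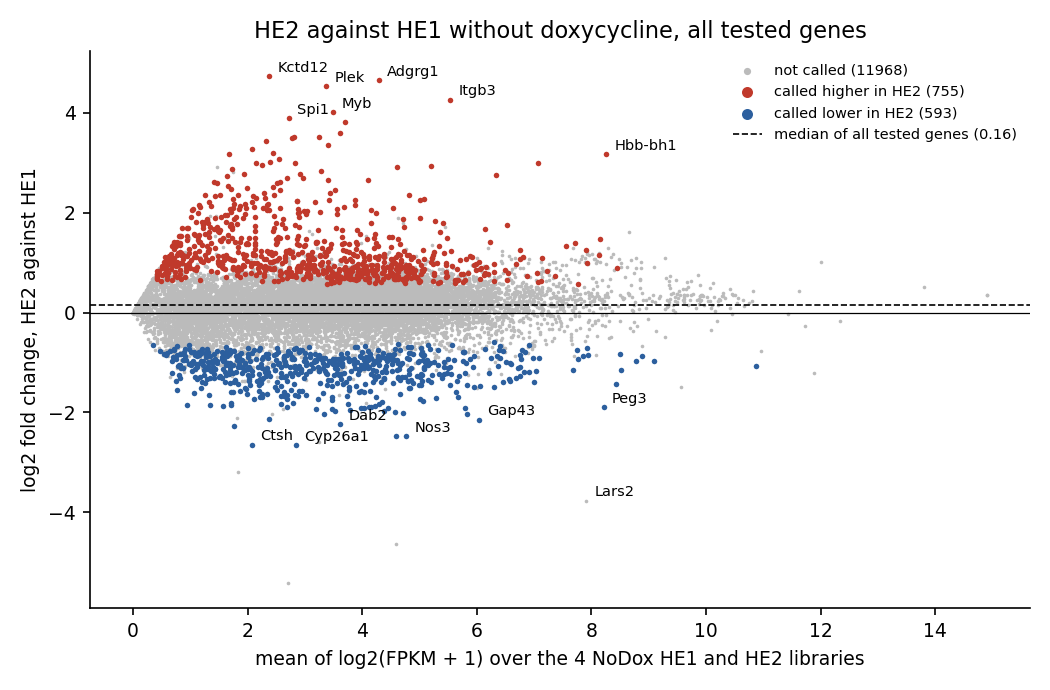
Each point is 1 of the 13316 tested genes, with the mean of log2(FPKM + 1) over the 4 libraries on the x axis and the log2 fold change of HE2 against HE1 on the y axis. The 755 genes called higher (red) reach 4.74 (Kctd12, listed at 0 in HE1), the 593 called lower (blue) reach −2.66, the dashed line marks the median of all genes at 0.16, and Lars2 is the uncalled point at −3.77.

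The calls leaned on single libraries. Without HE2 replicate 2 more genes were called in all, and lower genes outnumbered higher ones. List counts of lower genes in that fit therefore stand beside a gain of falls over all genes. A total of 170 genes were called higher and 59 lower in the fit of all 12 libraries and in every one of the 12 fits that left out 1 library. Without HE1 replicate 2, 190 genes were called higher and 72 lower, and without HE2 replicate 1 the counts were 256 and 83. Without HE1 replicate 1, the library with the high Lars2, they were 338 and 433, so that the lower genes outnumbered the higher ones.

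All genes together shifted upward. The median log2 ratio of HE2 to HE1 was 0.162 over the tested genes. It was positive in each of the 4 pairs of libraries, at 0.198 and 0.227 against HE1 replicate 1 and at 0.097 and 0.116 against HE1 replicate 2. The 2 HE1 libraries differed from each other by a median of 0.108 and the 2 HE2 libraries by 0.029, so the shift was of a similar size to the spread between the HE1 libraries. The shift grew with expression, from 0.059 for the 4427 genes under a mean of 5 FPKM to 0.292 for the 610 genes at 100 FPKM or more. FPKM values are relative to the total of each library, and the shift depended on how that total was treated. After the 3 dominant features were removed and every library was rescaled to the same total, it was −0.0224. Below, removal of the 3 features always includes this rescaling, and the effects of the 2 parts were not separated. After scaling each library to the same median it was 0.028. The balance of calls moved with it. Genes called higher made up 56.0% of the calls as deposited. They made up 40.6% after median scaling (823 higher and 1202 lower) and 43.1% after quantile normalization (914 and 1208). After removal of the 3 features with rescaling to equal totals the share was 40.9% (728 and 1050). Median scaling moved the median of all genes by over 0.1, so list medians below stand beside that of all genes.

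**Figure D2:**
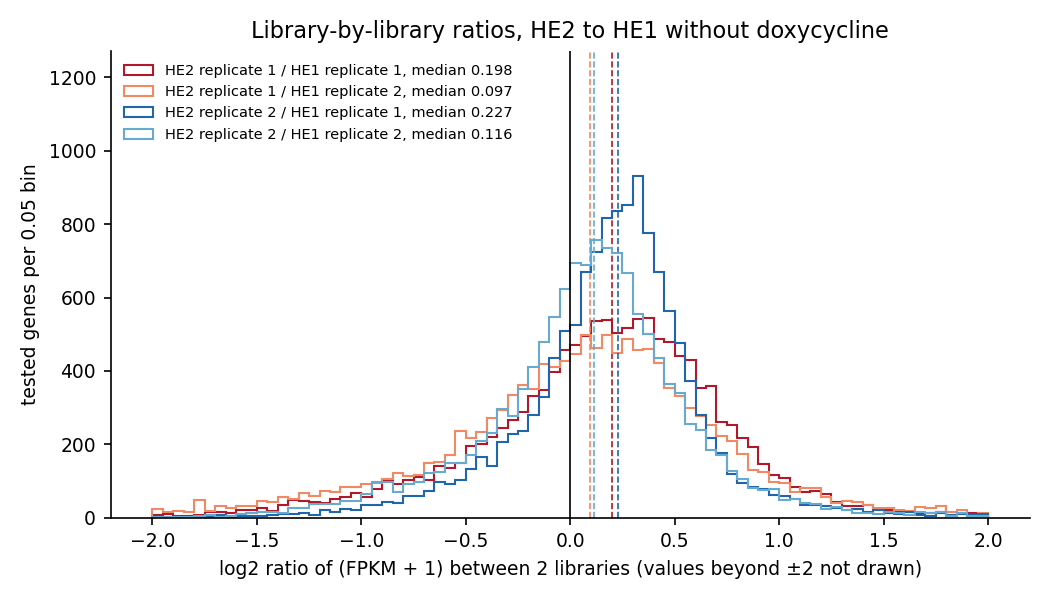
Histograms of the log2 ratio of FPKM + 1 between 1 HE2 and 1 HE1 library over all tested genes, in bins of 0.05, with the median of each pair as a dashed line. The 4 medians lie between 0.097 and 0.227, all to the right of 0, and the 2 pairs with HE1 replicate 1 lie farthest to the right.

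Transcription factors of blood rose as a group. Of 29 tested genes of this list, 17 were higher in HE2 and 1 was lower, and the median log2 fold change was 1.16, beside 0.16 for all genes. Runx1 (chromosome 16, 92601466 to 92826074, GRCm38, the build also called mm10) had 3.56 and 1.41 FPKM in HE1 replicates 1 and 2, and 29.4 and 36.8 FPKM in HE2. Values below are given in the same order of replicates. Spi1, the myeloid factor PU.1 (chromosome 2, 91082374 to 91115759), had 0.784 and 0.635 FPKM in HE1 and 25.3 and 23.5 FPKM in HE2. Myb, which sustains definitive progenitors (chromosome 10, 21124930 to 21160984), had 3.96 and 0.568 FPKM in HE1 and 56.5 and 34.5 FPKM in HE2. The HE2 libraries were far above the HE1 libraries for all 3 genes, with log2 fold changes of 3.36 for Runx1 (SE 0.570, adjusted p = 0.00425), 3.89 for Spi1 (SE 0.274, adjusted p = 1.66e-05) and 4.02 for Myb (SE 0.513, adjusted p = 0.000808). Folds are on the log2(FPKM + 1) scale, which understates changes of low genes.

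Promoter sequence was available from the RefSeq table (GRCm38.p6) for 14 of the transcription factor genes named here, at 22 start sites. The 250 bases before each start were searched on both strands for the RUNX core TGTGGT, which 14.18% of all 27025 promoters in the table hold, and for the ETS core CAGGAA, held by 25.41%. Among the 22 windows, 1 held the RUNX core and 7 held the ETS core. Shown are 120 bases, 5′ to 3′ on the strand of the gene, of the Meis1 promoter, where capitals mark the RUNX core, and of the promoters of 4 genes that rose, where capitals mark the ETS core or its reverse complement. These promoters were chosen because they hold a match, after the values were seen, and a match is a description of letters only. Cebpb, Gfi1b and Tal1, which also rose, had neither core. Runx1 and Ikzf1 each had another start site with neither core, which is not shown.
Runx1, chr16:92826137-92826256, minus strand: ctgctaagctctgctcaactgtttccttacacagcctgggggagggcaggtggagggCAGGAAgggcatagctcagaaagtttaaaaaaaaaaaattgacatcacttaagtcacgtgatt
Myb, chr10:21161115-21161234, minus strand: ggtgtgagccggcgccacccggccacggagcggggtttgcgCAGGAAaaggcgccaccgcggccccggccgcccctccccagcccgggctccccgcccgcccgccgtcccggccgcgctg
Ikzf1, chr11:11690013-11690132, plus strand: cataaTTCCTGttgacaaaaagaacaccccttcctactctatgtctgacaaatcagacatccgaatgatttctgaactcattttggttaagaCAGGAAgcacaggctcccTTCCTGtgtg
Gata1, chrX:7967974-7968093, minus strand: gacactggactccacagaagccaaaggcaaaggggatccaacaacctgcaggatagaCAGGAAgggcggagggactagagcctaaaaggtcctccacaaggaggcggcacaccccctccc
Meis1, chr11:19019073-19019192, minus strand: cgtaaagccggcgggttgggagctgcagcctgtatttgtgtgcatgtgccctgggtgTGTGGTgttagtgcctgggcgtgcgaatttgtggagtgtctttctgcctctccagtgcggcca

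Other blood factors ranged from under 3 FPKM in HE1 to levels well above that. Ikzf1, a lymphoid and progenitor factor, had 1.61 and 0.636 FPKM in HE1 and 22.1 and 23.0 FPKM in HE2 (log2 fold change 3.51, SE 0.224, adjusted p = 1.25e-05). Gfi1b, a repressor of endothelial genes, had 2.14 and 0.315 FPKM in HE1 and 32.5 and 14.7 FPKM in HE2 (3.50, SE 0.516, adjusted p = 0.00192). Cebpb, a myeloid factor, went from 1.57 and 2.03 FPKM to 36.3 and 26.3 FPKM (3.52, SE 0.234, adjusted p = 1.54e-05). Gata1, the erythroid and megakaryocytic factor, was at 1.21 and 0.321 FPKM in HE1 and at 20.5 and 7.29 FPKM in HE2 (2.97, SE 0.456, adjusted p = 0.00236). In Myb, Gfi1b and Gata1 the first replicate was the higher one in both groups, and the groups did not overlap. Tal1, which specifies hemogenic endothelium, was already at 29.0 and 25.9 FPKM in HE1 and rose to 82.9 and 50.1 FPKM (1.20, SE 0.263, adjusted p = 0.0151). Its relative Lyl1 rose from 23.4 and 18.1 to 53.4 and 47.3 FPKM, and Meis1 from 6.43 and 5.47 to 14.4 and 14.4 FPKM (1.16, SE 0.196, adjusted p = 0.00425). Lmo2, Gata2, Fli1 and Erg, factors of the early network, did not pass the test, with log2 fold changes of 0.47, 0.21, −0.37 and −0.25. Gata2 had 15.1 and 13.7 FPKM in HE1 and 18.8 and 15.0 FPKM in HE2, so the groups overlapped.

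Mecom, which encodes EVI1, was the 1 member of the blood factor list called lower, with 17.0 and 28.3 FPKM in HE1 and 6.08 and 13.9 FPKM in HE2 (−1.16, SE 0.318, adjusted p = 0.0406). The groups did not overlap, and its call held in 11 of 22 alternatives and was lost without HE1 replicate 2 (or HE2 replicate 1). The call of Runx1 was lost only without HE1 replicate 2, at an adjusted p of 0.0602. Spi1, Myb, Ikzf1, Gfi1b, Cebpb and Gata1 were called in all 12 fits that left out 1 library. Of the 29 blood factors, 8 were called higher without HE1 replicate 2 and 11 without HE2 replicate 1.

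**Figure D3:**
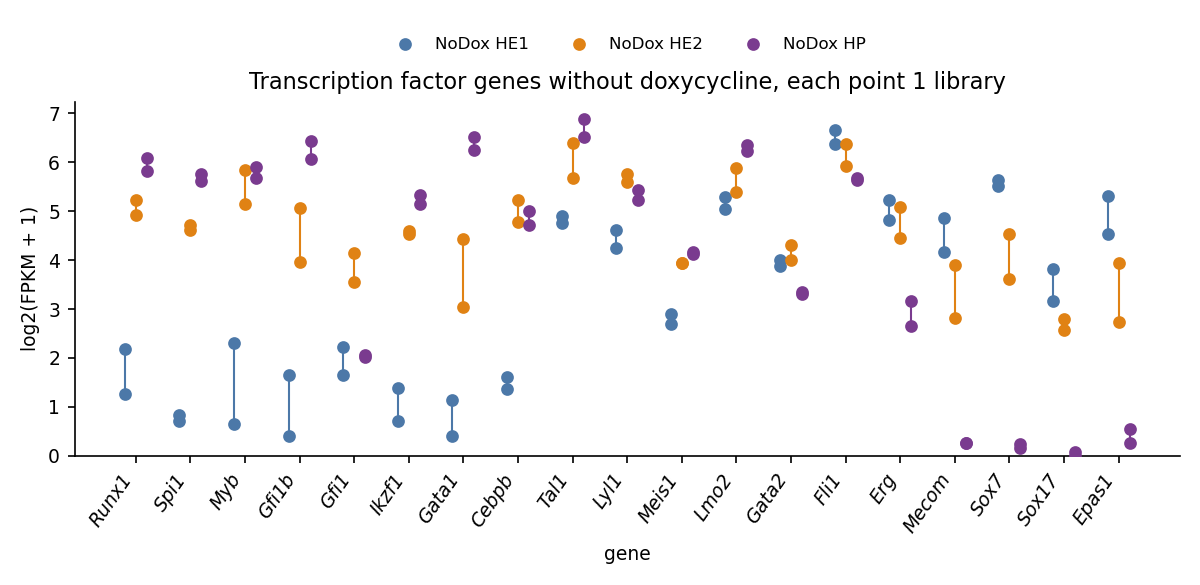
Each point is the log2(FPKM + 1) of 1 gene in 1 library without doxycycline, with the 2 replicates of HE1 (blue), HE2 (orange) and HP (purple) joined by a line. Runx1 to Cebpb are near the floor in HE1 and raised in HE2, Tal1 to Erg are present in both, and Mecom to Epas1 are lower in HE2 and near 0 in HP.

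Surface and signalling genes of blood cells rose with their transcription factors. Of 33 tested pan-haematopoietic and leukocyte genes, 19 were higher and 0 lower, with a median of 1.43. Plek (pleckstrin, a substrate of protein kinase C in platelets and leukocytes) had 1.22 and 1.08 FPKM in HE1 and 36.5 and 64.8 FPKM in HE2 (4.53, SE 0.260, adjusted p = 5.72e-06). Was, the actin regulator mutated in Wiskott-Aldrich syndrome, rose from 4.02 and 2.50 FPKM to 28.4 and 23.0 FPKM. Fermt3, which activates integrins of blood cells, rose from 23.5 and 7.86 FPKM to 95.5 and 50.2 FPKM, a wide spread in both groups. Ptpn7, a phosphatase of leukocytes, rose by 2.29. Ptprc itself reached only 0.590 and 1.17 FPKM in HE2 and did not pass the test (adjusted p = 0.0577). Signalling and cytoskeletal genes of blood cells were thus high in libraries where the RNA of CD45 was at about 1 FPKM. The list had 13 higher members without HE1 replicate 2.

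Among stem and progenitor surface genes, 6 of 21 were higher and 2 were lower, with a median of 0.55. Itgb3 (integrin beta 3, chromosome 11, 104608000 to 104670476) had the highest level in HE2 of the 15 largest rises, with 9.24 and 9.86 FPKM in HE1 and 202.6 and 201.8 FPKM in HE2 (4.27, SE 0.195, adjusted p = 8.21e-07). Its replicates lay close together in both groups. Itga2b, its partner in the platelet fibrinogen receptor, had 51.1 and 29.2 FPKM in HE1 and 165.9 and 94.9 FPKM in HE2. Csf3r, the G-CSF receptor, rose from 0.157 and 0.0998 FPKM to 5.38 and 6.24 FPKM. Kit was at 40.5 and 43.6 FPKM in HE1 and at 66.3 and 74.2 FPKM in HE2. Esam and Ly6a, which encodes the stem cell antigen Sca-1, were the 2 lower members. Ly6a had 10.9 and 19.6 FPKM in HE1 and 4.95 and 6.63 FPKM in HE2, with a log2 fold change of −1.22. Itgb3 and Csf3r were called in all 12 fits that left out 1 library.

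Genes of 3 blood lineages rose together. In the erythroid list 23 of 31 tested genes were higher and 0 lower (median 1.46), in the megakaryocyte list 16 of 29 and 0 (median 1.20), and in the myeloid and mast cell list 9 of 21 and 0 (median 0.83). The list members overlap, since genes such as Plek, Itgb3, Gfi1b and Itga2b stand in more than 1 list. The counts of higher genes were 15, 13 and 6 without HE1 replicate 1, 12, 9 and 5 without HE1 replicate 2, and 14, 12 and 7 without HE2 replicate 1.

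Embryonic globins were the most abundant of these genes. Hbb-bh1, an embryonic beta-like globin, had 126 and 81.5 FPKM in HE1, 981 and 863 FPKM in HE2, and 7459 and 8221 FPKM in HP. Its log2 fold change was 3.17 (SE 0.284, adjusted p = 9.24e-05). Hba-x, the embryonic alpha-like globin, had 38.8 and 56.1 FPKM in HE1 and 298 and 479 FPKM in HE2, and Hbb-y had 22.5 and 40.4 FPKM in HE1 and 151 and 290 FPKM in HE2. In the near-identical pair Hba-a1 and Hba-a2, whose reads the counting could split, the folds were 2.95 and 2.92. Globin RNA was thus present in both HE1 libraries and rose in HE2 by 2.75 to 3.17 on the log2 scale for the embryonic genes. Whether carried-over erythroid cells or free RNA took part in these values was not tested. Alas2, the first enzyme of haem synthesis in red cells, rose from 2.22 and 1.88 to 8.83 and 8.91 FPKM. Klf1, the erythroid factor that switches on adult globin genes, had 0.325 and 0.445 FPKM in HE1 and 3.40 and 2.83 FPKM in HE2.

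Platelet and myeloid genes included several of the largest rises of all genes. P2rx1, an ATP-gated channel of platelets, rose from 3.94 and 1.41 FPKM to 54.8 and 41.5 FPKM (3.82, SE 0.323, adjusted p = 6.20e-05), and Atp2a3, a calcium pump of blood cells, from 4.00 and 1.49 FPKM to 39.2 and 44.6 FPKM. Tubb1, the tubulin of platelets, rose from 0.592 and 0.405 FPKM to 4.54 and 4.80 FPKM. Pf4 (platelet factor 4) and Vwf stayed under 2 FPKM in all 4 libraries and were not called. Lyz2 (lysozyme) rose from 0.841 and 0.259 FPKM to 13.7 and 17.4 FPKM (3.43, SE 0.252, adjusted p = 2.28e-05). Mpo (myeloperoxidase) rose from 1.26 and 0.433 FPKM to 16.9 and 14.1 FPKM, and Tyrobp, an adaptor of myeloid receptors, from 0 and 0.465 FPKM to 6.67 and 9.42 FPKM. Of other granule genes in the list, Elane, Ctsg and Ms4a3 did not pass the filter on low values and Prtn3 was not called (0.38, adjusted p = 0.37). The 6 macrophage markers (Csf1r, Cd68, C1qa, C1qb, Adgre1 and Cx3cr1) summed to 4.47 and 4.72 FPKM in HE1 and to 7.50 and 7.41 FPKM in HE2. Most of each sum was Cd68, at 4.23 and 4.51 FPKM in HE1 and 6.55 and 5.80 FPKM in HE2. Cd68 was not called (adjusted p = 0.218). Adgre1 and C1qa were at 0 in all 4 libraries, and C1qb was at 0 in HE1 and at 0 and 0.0643 FPKM in HE2.

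The 2 largest rises by log2 fold change lay outside these lists. Adgrg1, an adhesion receptor of haematopoietic stem cells also called GPR56, had 4.77 and 1.61 FPKM in HE1 and 125 and 75.6 FPKM in HE2 (4.66, SE 0.519, adjusted p = 0.000337). Kctd12, an auxiliary subunit of GABA-B receptors, was listed at 0 in both HE1 libraries and had 22.3 and 29.5 FPKM in HE2 and 35.5 and 38.3 FPKM in HP. Its fitted difference of 4.74 depends on the pseudocount, since it has no level in HE1. Both were called in all 12 fits that left out 1 library, as were the other genes of the 15 largest rises except Runx1.

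Endothelial surface and junction genes fell but remained expressed. Of 35 tested members, 14 were lower and 1 was higher, and the median was −1.002. Nos3, the endothelial nitric oxide synthase (chromosome 5, 24364816 to 24384474), had 58.0 and 68.8 FPKM in HE1 and 8.43 and 13.2 FPKM in HE2 (−2.47, SE 0.268, adjusted p = 0.000286). Mcam (CD146) had 28.3 and 60.0 FPKM in HE1 and 5.86 and 17.2 FPKM in HE2, and the scavenger receptor gene Stab1 had 24.7 and 37.4 FPKM and then 4.86 and 11.1 FPKM. For each of these genes the lowest HE1 library was above the highest HE2 library, and HE2 replicate 1 was the lower of the HE2 libraries. Ramp2, the adrenomedullin co-receptor, was among the most abundant, with 518 and 617 FPKM in HE1 and 175 and 249 FPKM in HE2 (log2 fold change −1.43).

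Other defining endothelial genes also had lower values in HE2, and not all of them passed the test. Cdh5 (VE-cadherin) had 298 and 438 FPKM in HE1 and 160 and 253 FPKM in HE2 (−0.84, SE 0.263, adjusted p = 0.0635). Kdr had 242 and 322 FPKM in HE1 and 116 and 203 FPKM in HE2 (−0.86, SE 0.301, adjusted p = 0.0891). Pecam1 passed at a similar fold of −0.85 (adjusted p = 0.0489), a call that held in 7 of 22 alternatives. Tek had 143 and 164 FPKM in HE1 and 59.4 and 84.2 FPKM in HE2. For all 4 genes the HE1 libraries were above the HE2 libraries, where 63.2% of all tested genes had no overlap in either direction. The number of lower members was 2 without HE1 replicate 2 and 3 without HE2 replicate 1, while it was 25 without HE2 replicate 2 and 27 after median scaling. Nos3 was called in all 12 fits that left out 1 library.

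Lyve1, a hyaluronan receptor of lymphatic and yolk sac endothelium, was the 1 higher member. It had 6.96 and 8.66 FPKM in HE1, 27.1 and 46.3 FPKM in HE2 and 2.97 and 2.12 FPKM in HP (HE2 against HE1 2.06, SE 0.364, adjusted p = 0.00539). It was highest in HE2 of the 3 populations, and the fall from HE2 to HP was −3.37 (SE 0.364, adjusted p = 6.94e-05). Gfi1, the partner of Gfi1b in silencing endothelial genes, had the same course, with 3.65 and 2.13 FPKM in HE1, 16.8 and 10.7 FPKM in HE2 and 3.15 and 3.03 FPKM in HP. Its rise was 1.92 (adjusted p = 0.0115) and its fall to HP −1.82 (adjusted p = 0.00724). The call of the rise of Gfi1 was lost without HE1 replicate 2 or HE2 replicate 1, with adjusted p-values up to 0.128 over all alternatives.

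Among 25 tested transcription factors of endothelium, 6 were lower and 3 higher (median −0.19). The 3 higher ones, Tal1, Lyl1 and Etv6, also stand in the blood list. Epas1 (HIF-2 alpha) had 22.1 and 38.5 FPKM in HE1 and 5.68 and 14.4 FPKM in HE2 (−1.57, SE 0.353, adjusted p = 0.0167). Sox7, an endothelial SOX factor that restrains the blood fate, had 45.0 and 48.9 FPKM in HE1 and 11.2 and 22.0 FPKM in HE2 (−1.51, SE 0.305, adjusted p = 0.0104). Its relative Sox17 had 7.92 and 13.2 FPKM in HE1 and 4.95 and 5.91 FPKM in HE2 and did not pass (−0.81, adjusted p = 0.107). Without HE1 replicate 1, 4 were lower and 1 higher, none (0) was called without HE1 replicate 2, and 1 in each direction without HE2 replicate 1.

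In the Notch and arterial list 7 of 24 were lower and 0 higher (median −0.65). The receptor gene Notch1 had 65.1 and 65.7 FPKM in HE1 and 26.1 and 34.4 FPKM in HE2 (−1.10, SE 0.240, adjusted p = 0.0150). Notch4 had 22.9 and 35.2 FPKM in HE1 and 6.23 and 16.6 FPKM in HE2 (−1.38, adjusted p = 0.0300). The ligand gene Dll4 had 2.93 and 5.98 FPKM in HE1 and 0.482 and 2.66 FPKM in HE2 and was not called (−1.17, adjusted p = 0.0828). The Notch target Hey2 fell by 1.23 on the log2 scale, from 6.25 and 5.83 FPKM to 1.55 and 2.56 FPKM. The arterial guidance receptor Unc5b and Acvrl1, a receptor of BMP9, fell by 1.36 and 1.38. The receptor genes Notch1 and Notch4 and the target gene Hey2 thus fell. The receptor genes Notch2 and Notch3 were not called, with folds of 0.32 and −0.61. Hes1, Hey1 and Nrarp, other target genes, had folds of 0.15, −0.06 and 0.00 and were not called either. The list had 4 lower members without HE1 replicate 1, 0 without HE1 replicate 2 and 1 without HE2 replicate 1.

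In the VEGF, Tie and Ephrin list 6 of 17 tested genes were lower, 1 was higher and 10 were not called (median −0.86). Vegfa had 55.4 and 67.8 FPKM in HE1 and 22.1 and 29.5 FPKM in HE2 (−1.23, SE 0.260, adjusted p = 0.0131). Flt1, the decoy receptor of VEGF-A, had 40.8 and 57.6 FPKM in HE1 and 16.4 and 29.7 FPKM in HE2, and Epha2 fell by 1.42. Angpt1, a ligand of TIE2, was the higher member, from 0.183 and 0.168 FPKM to 0.967 and 1.34 FPKM. No (0) member of this list was called without HE1 replicate 2 or without HE2 replicate 1, and 10 were lower without HE2 replicate 2. In the BMP and TGF-beta list 4 of 28 were lower and 1 higher (median −0.32). The share called was 17.9%, beside 10.1% of all tested genes. Bmp6 fell from 29.1 and 36.2 FPKM to 6.62 and 9.82 FPKM (−1.88, SE 0.212, adjusted p = 0.000359) and was called in all 12 fits that left out 1 library. Tgfb1 was the higher member, from 24.4 and 23.8 FPKM to 64.3 and 50.5 FPKM (1.21, adjusted p = 0.0303). In this list 1 lower and 0 higher members were called without HE1 replicate 2, and the same counts held without HE2 replicate 1.

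The Wnt and Hippo list held 8 lower and 1 higher of 31 (median −0.55). Genes of the YAP and TEAD branch, whose products relay tension and cell contact to the nucleus, were among the lower ones. Yap1 had 41.5 and 32.1 FPKM in HE1 and 19.3 and 21.5 FPKM in HE2 (−0.81, SE 0.201, adjusted p = 0.0259). Its partner gene Tead1 had 15.0 and 11.7 FPKM in HE1 and 5.54 and 5.15 FPKM in HE2, and Tead4 fell by 1.04. Wwtr1 (TAZ) fell by 0.82 and the junction-bound regulator Amotl1 by 1.86, from 30.2 and 40.0 FPKM to 6.39 and 12.1 FPKM. Tcf7l1, a repressor of Wnt targets, fell from 7.77 and 5.99 FPKM to 1.02 and 1.76 FPKM (−1.73, SE 0.287, adjusted p = 0.00386). The YAP target genes Ctgf, Cyr61 and Ankrd1 had folds of −0.95, −0.62 and −0.85 and were not called. Amotl1 and Tcf7l1 were the 2 members called without HE1 replicate 2, and they kept their calls in all 12 fits that left out 1 library.

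A share of the genes of matrix and of cell contacts fell, and none (0) was called higher. In the extracellular matrix list 12 of 43 were lower and 0 higher (median −0.70), and in the junction list 11 of 22 were lower and 0 higher (median −0.87). Tnc, the matrix protein tenascin C, had 45.9 and 67.9 FPKM in HE1 and 6.22 and 13.6 FPKM in HE2 (−2.47, SE 0.338, adjusted p = 0.00121). Timp1, a protease inhibitor, fell from 17.4 and 27.3 to 3.35 and 6.79 FPKM, and Nid1, a basement membrane linker, from 112 and 153 to 31.6 and 66.5 FPKM. Basement membrane chains were also lower, with Col4a1 at −1.14, Col4a2 at −0.86, Lama4 at −1.22 and Hspg2 (perlecan) at −1.09. Other basement membrane genes, Lamc1, Nid2 and Col18a1, were not called, at −0.44, −0.90 and −0.26. Of other matrix genes, the fibrillar collagen gene Col5a2 fell by 0.998 (adjusted p = 0.0156) and Fbn1 (fibrillin 1) by 1.46 (adjusted p = 0.0153), while Col1a1 and Fn1 were not called, at −0.26 and −0.36. Cgnl1 (paracingulin of tight junctions) had 44.9 and 58.3 FPKM in HE1 and 8.66 and 16.5 FPKM in HE2 (−2.004, SE 0.302, adjusted p = 0.00214). Gjc1 (connexin 45), Mllt4 (afadin), Ocln (occludin) and Tjp1 (ZO-1) fell by 1.72, 1.44, 1.28 and 1.22. The matrix list had 2 and the junction list 1 lower member without HE1 replicate 2, and these were 3 and 1 without HE2 replicate 1, 10 and 7 without HE1 replicate 1, and 20 and 12 without HE2 replicate 2. Tnc, Timp1 and Cgnl1 were called in all 12 fits that left out 1 library.

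Contractile and mesenchymal genes had lower values in HE2, and markers of other cells moved with them. In the actin and smooth muscle list 2 of 28 were lower, Csrp2 among them, and 0 higher, with a median of −0.38. The share of 7.14% stands beside 4.45% of all tested genes called lower and 10.1% called in either direction. Acta2, smooth muscle actin, had 67.5 and 115 FPKM in HE1 and 25.9 and 50.7 FPKM in HE2 and was not called (−1.26, adjusted p = 0.129). The 8 markers of mesenchyme and smooth muscle (Pdgfra, Pdgfrb, Dcn, Lum, Thy1, Acta2, Tagln and Col1a1) summed to 120.1 and 201.7 FPKM in HE1 and to 56.7 and 90.8 FPKM in HE2, most of it Acta2 and Tagln, with Lum at 0 in all 4 libraries. Of 10 tested genes of the mesenchymal list 5 were lower and Pdgfrb was higher. Zeb1 fell from 12.2 and 15.1 FPKM to 4.25 and 7.62 FPKM (−1.11, adjusted p = 0.0152), and Lgals1, which encodes galectin 1, from 658 and 889 FPKM to 382 and 398 FPKM. No (0) contractile or mesenchymal gene was called without HE1 replicate 2 or without HE2 replicate 1, while 3 contractile and 3 mesenchymal genes were lower without HE1 replicate 1, and 4 and 3 without HE2 replicate 2.

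Some early mesoderm and cardiac factors were low in HE1 and lower in HE2, with 5 of 16 tested genes of that list lower and 0 higher (median −0.47). The share of 31.25% stands beside 4.45% of all tested genes called lower and 10.1% called in either direction. Gata6 had 11.6 and 11.2 FPKM in HE1 and 4.09 and 4.44 FPKM in HE2 (−1.24, SE 0.202, adjusted p = 0.00342), and Hand1, Tbx20, Foxf1 and Nkx2-5 fell by 1.29, 1.24, 1.28 and 1.08. The 5 cardiac markers summed to 6.44 and 7.43 FPKM in HE1 and to 3.97 and 5.79 FPKM in HE2, with Myl7 and Tbx5 at 0. Of these markers only Nkx2-5 was called, and Actc1 was not (−0.52, adjusted p = 0.271). Tnnt2 went the other way, from 1.96 and 1.75 FPKM to 2.28 and 2.65 FPKM, and was not called. Whether these mesenchymal and cardiac values come from other cells in the sort was not tested. In the Hox list 6 of 14 were lower, among them Hoxb7 and Hoxb9, and Hoxd1 was higher. The share called was 50.0%, beside 10.1% of all tested genes. Hoxb7 had 3.05 and 2.95 FPKM in HE1 and 0.548 and 0.691 FPKM in HE2 (−1.30, SE 0.184, adjusted p = 0.00148), and Hoxb9 fell by 1.24. Hoxd1 rose from 1.06 and 0.649 FPKM to 4.62 and 4.18 FPKM (1.55, adjusted p = 0.00507). The cardiac list had 2 lower members without HE1 replicate 1, 3 without HE1 replicate 2 and 1 without HE2 replicate 1, and the Hox list had 2, 4 and 3. Gata6, Hoxb7 and Hoxb9 were called in all 12 fits that left out 1 library.

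Other large falls were of genes outside the vascular lists. Cyp26a1, which degrades retinoic acid, had 15.8 and 18.2 FPKM in HE1 and 1.36 and 2.44 FPKM in HE2 (−2.66, SE 0.260, adjusted p = 0.000189). Ctsh (cathepsin H) fell from 8.72 and 10.3 FPKM to 0.252 and 1.25 FPKM (−2.64, SE 0.313, adjusted p = 0.000493). Erbb2, Apcdd1 (a Wnt inhibitor) and Gap43 (growth-associated protein 43) fell by 2.13, 1.93 and 2.14. Edn1 (endothelin 1) had 28.4 and 75.0 FPKM in HE1 and 5.11 and 22.2 FPKM in HE2 (−1.99), and its call (adjusted p = 0.0397) held in 10 of 22 alternatives and was lost without HE1 replicate 2 or HE2 replicate 1, as was that of Gap43. Cyp26a1, Ctsh, Erbb2 and Apcdd1 were called in all 12 fits that left out 1 library.

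**Figure D4:**
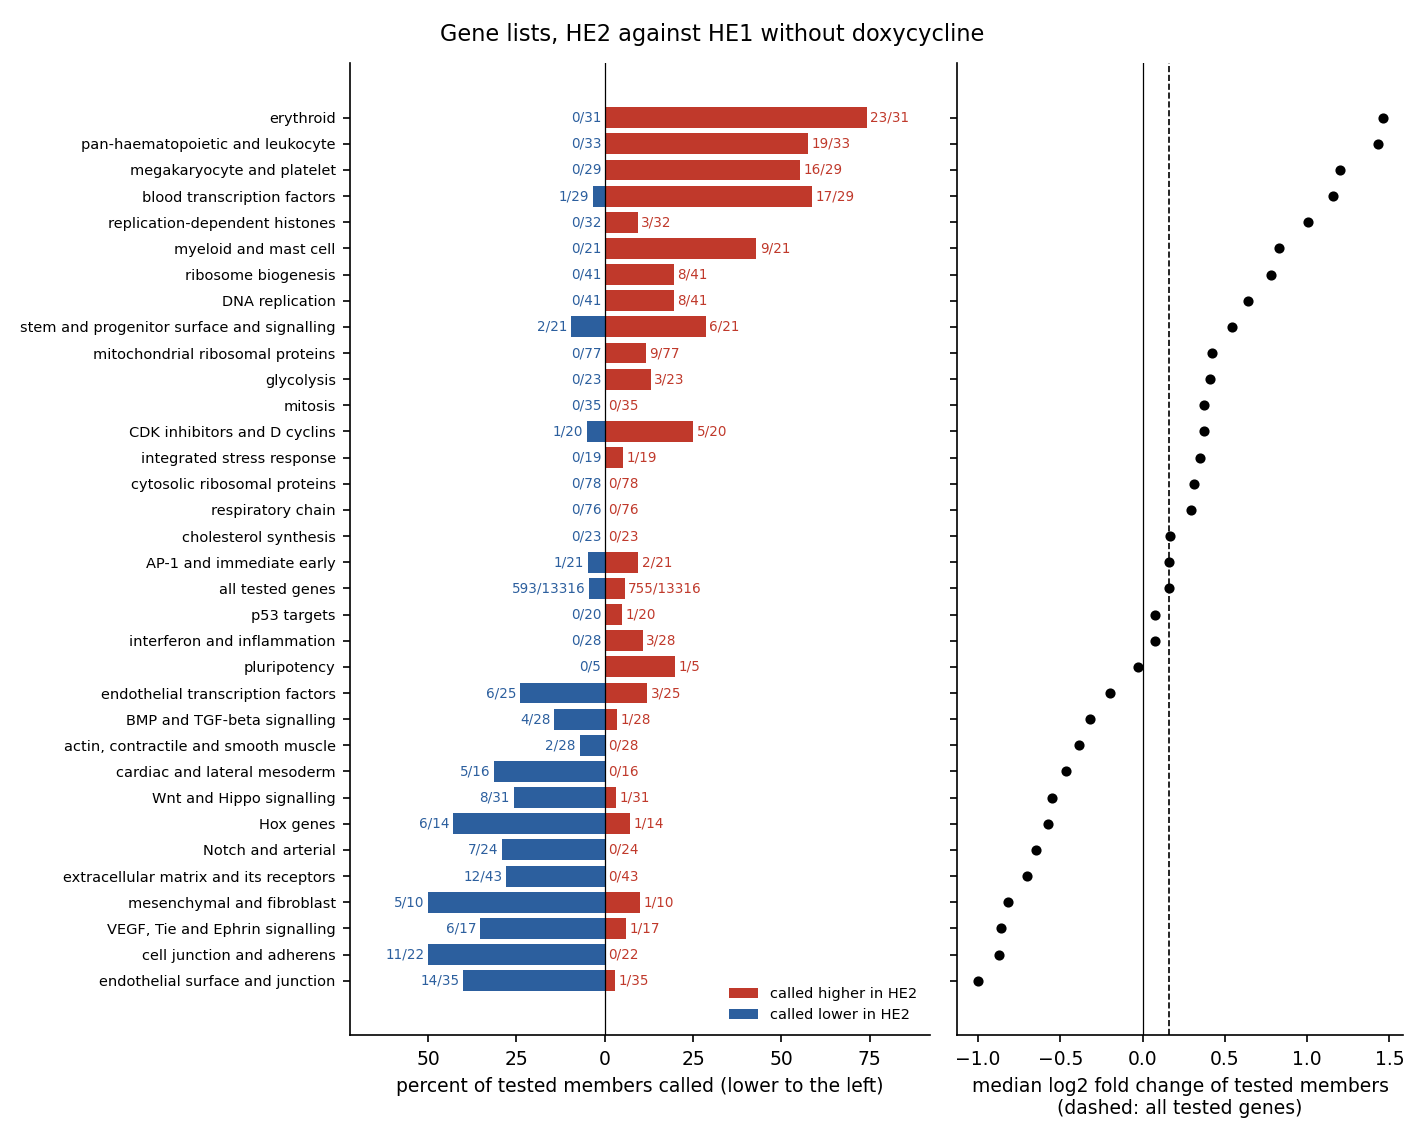
For each gene list, bars give the percent of tested members called higher (red, right) and lower (blue, left) in HE2, with the counts, and points give the median log2 fold change of all tested members, with all tested genes at 0.16 as the dashed line. Blood lists stand at the top, with erythroid genes at 23 of 31 higher, and endothelial, junction and signalling lists stand at the bottom, with endothelial surface genes at 14 of 35 lower.

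Some replication genes rose, by 0.61 to 1.05 on the log2 scale, and no mitotic gene passed the test. In the DNA replication list 8 of 41 were higher and 0 lower, the median was 0.64, and all 41 lay above the median of all genes. The nucleotide enzyme gene Dut had 18.0 and 15.8 FPKM in HE1 and 41.8 and 30.9 FPKM in HE2 (1.05, SE 0.216, adjusted p = 0.0116). Ccne1 (cyclin E1) rose from 9.60 and 6.94 FPKM to 20.0 and 16.0 FPKM, and Pcna (the replication clamp) rose by 0.61 from 111 and 104 FPKM to 176 and 153 FPKM. Of 35 mitosis genes 0 were called in either direction, with a median of 0.38 and folds from 0.05 to 0.78. Of 32 replication-dependent histone genes 3 were higher and 0 lower, and their median was 1.01. The share of 9.38% stands beside 5.67% of all tested genes called higher and 10.1% called in either direction. Without HE1 replicate 1, 4 replication genes and 1 histone gene were called. Of both lists 0 were called without HE1 replicate 2, and 0 without HE2 replicate 1, while 17 histone genes were called without HE2 replicate 2.

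The D cyclins moved in opposite directions. Ccnd1 fell from 33.4 and 56.2 FPKM to 9.40 and 18.7 FPKM (−1.63, SE 0.311, adjusted p = 0.00779). Ccnd2 rose from 2.09 and 2.05 FPKM to 5.41 and 7.04 FPKM (1.23, SE 0.308, adjusted p = 0.0279), and Ccnd3 rose from 96.0 and 95.1 FPKM to 231 and 181 FPKM (1.09, SE 0.288, adjusted p = 0.0343). Their partner kinase gene Cdk6 rose by 0.87, and E2f2 by 1.27. Cdkn1a (p21) had 39.7 and 69.0 FPKM in HE1 and 55.6 and 61.8 FPKM in HE2, within its own spread. All calls of the 3 D cyclins were lost without HE1 replicate 2 or without HE2 replicate 1. The calls of Ccnd2, Ccnd3 and Cdk6 were lost without HE1 replicate 1 too, and those of Ccnd2 and Cdk6 without HE2 replicate 2. Over all alternatives the folds ranged from −2.09 to −1.17 for Ccnd1, from 1.015 to 1.53 for Ccnd2 and from 0.858 to 1.26 for Ccnd3. Of 20 p53 target genes, Perp alone was called, from 5.26 and 6.46 FPKM to 37.0 and 48.3 FPKM (2.66, SE 0.188, adjusted p = 1.66e-05), and it kept its call in all 12 fits that left out 1 library. Perp encodes a membrane protein of desmosomes and of apoptosis. The share of p53 target genes called was 5.0%, below the 10.1% of all tested genes.

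Most genes of ribosomes and of energy supply were not called. Of 41 ribosome biogenesis genes 8 were higher and 0 lower (median 0.78, and all 41 above the median of all genes). Nolc1, a nucleolar chaperone, rose from 27.7 and 21.1 FPKM to 64.9 and 47.0 FPKM (1.16, adjusted p = 0.0289). Ribosomal protein genes of mitochondria had 9 of 77 higher and 0 lower (median 0.43). The share of 11.7% stands beside 5.67% of all tested genes called higher and 10.1% called in either direction. Cytosolic ribosomal protein genes had 0 of 78 called (median 0.31), and genes of the respiratory chain 0 of 76 (median 0.29). Genes at 100 FPKM or more had a median of 0.292 as a whole. In both lists with calls 0 genes were called without HE1 replicate 1, without HE1 replicate 2 or without HE2 replicate 1, 14 ribosome biogenesis genes were called without HE2 replicate 2, and 22 after the 3 dominant features were removed. Of 23 glycolysis genes 3 were higher, with Hk2 (hexokinase 2) rising from 10.2 and 6.42 FPKM to 22.6 and 24.3 FPKM (1.42, SE 0.264, adjusted p = 0.00691), a call lost without HE1 replicate 2, and the list had 1 higher member without HE1 replicate 1. Cholesterol synthesis had 0 of 23 called and the integrated stress response 1 of 19, the serine synthesis gene Phgdh (1.61, adjusted p = 0.0111). The share called was 13.0% in the glycolysis list and 5.26% in the stress response list, beside 10.1% of all tested genes.

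Signal-induced genes showed no common direction. Of 21 AP-1 and immediate early genes 2 were higher (Ier3 and Zfp36) and 1 was lower (Atf3), and the median of 0.16 equalled that of all genes. The share called was 14.3%, beside 10.1% of all tested genes. Of 28 interferon and inflammation genes 3 were higher and 0 lower. This is 10.7%, beside 10.1% of all tested genes called in either direction and 5.67% called higher. Ccl3, a chemokine, was at 0 and 0.144 FPKM in HE1 and at 5.36 and 13.6 FPKM in HE2 (3.17, SE 0.342, adjusted p = 0.000286), and Ifitm1 rose from 2.60 and 2.09 FPKM to 10.9 and 19.9 FPKM. Of 5 tested pluripotency genes Dnmt3b was higher, from 11.8 and 8.83 FPKM to 54.9 and 39.8 FPKM (2.09, SE 0.319, adjusted p = 0.00230). Dnmt3b encodes a DNA methyltransferase, and the 5 markers of undifferentiated embryonic stem cells summed to under 1 FPKM in each of the 4 libraries. Ccl3 and Dnmt3b were called in all 12 fits that left out 1 library.

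The same step was measured in separate libraries with doxycycline. There 1144 genes (8.59%) were called, 759 higher (5.70%) and 385 lower (2.89%). Of the 755 genes higher without doxycycline, 712 had a positive fold with doxycycline, that is 94.3%, beside 67.3% of all tested genes. Of these 755, 368 were called higher there too, which is 48.7% of the first and 48.5% of the second set, and 1 was called lower. Of the 593 lower genes, 568 had a negative fold with doxycycline (95.8%, beside 32.6% of all genes), and 208 were called lower too (35.1% of the first and 54.0% of the second set). The fit shares its estimate of the spread between the 2 steps. Itgb3, for example, rose by 3.73 with doxycycline, Spi1 by 4.19, Myb by 4.04 and Runx1 by 3.19. The endothelial surface list had 14 lower members without and 3 with doxycycline, with medians of −1.002 and −0.41, and Nos3 had folds of −2.47 and −0.96. No endothelial surface gene passed when the 2 steps were compared directly, and Nos3 had an adjusted p of 0.274.

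The test of the difference between the 2 steps called 6 of 13316 genes (0.0451%), with 892 genes at an unadjusted p below 0.05. Of the 6, 5 (0.0375%) rose more with doxycycline and 1 (0.00751%) rose less. Ptprc had 0.0659 and 0 FPKM in HE1 and 8.43 and 14.8 FPKM in HE2 with doxycycline, against 0 and 0 and then 0.590 and 1.17 FPKM without (difference 2.67, SE 0.384, adjusted p = 0.0397). Il1b, the cytokine interleukin 1 beta, had 0.254 and 0.105 and then 15.6 and 21.0 FPKM with doxycycline, and stayed under 0.1 FPKM without. Among these groups Il1b met the filter of 1 FPKM only where it was high, so its call is given as a description. Tirap, an adaptor of Toll-like receptors, was the 1 gene with the opposite sign, rising from 3.59 and 4.68 to 7.01 and 7.95 FPKM without doxycycline and falling from 15.0 and 12.6 to 4.96 and 4.77 FPKM with it. Kctd12 and Perp, 2 of the firm rises without doxycycline, had smaller folds with it, and those differences did not pass (adjusted p = 0.129 and 0.0882). Kctd12 read 0 and 1.75 FPKM in HE1 and 3.40 and 0 FPKM in HE2 with doxycycline. Fits that left out 1 library called 0 to 4 genes, and at most 1 of the 6 was among them in any such fit.

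**Figure D5:**
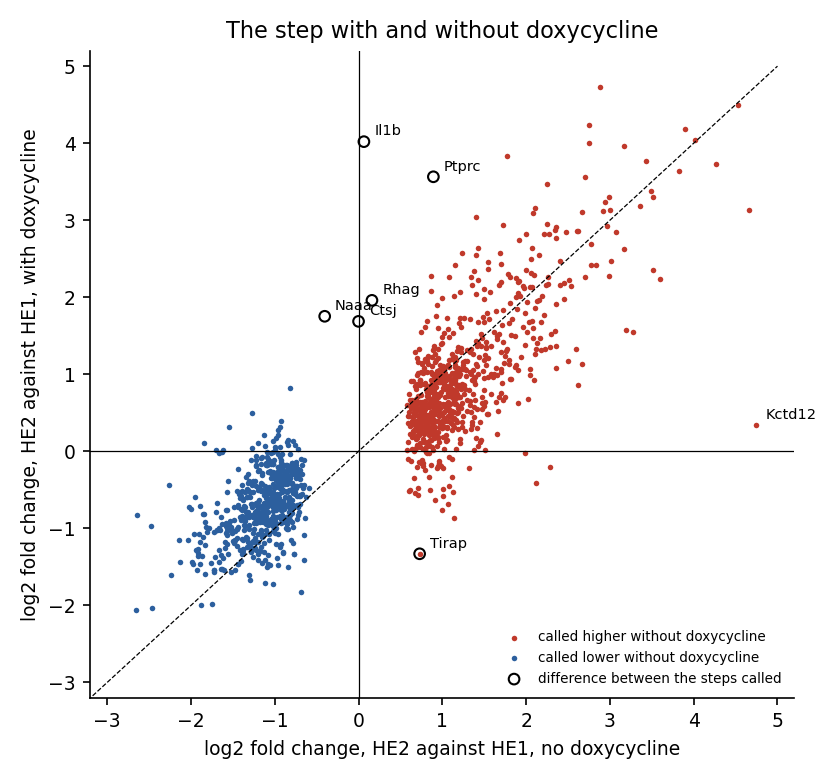
Each point is a gene called in the step without doxycycline, with its log2 fold change (HE2 against HE1) without doxycycline on the x axis and with doxycycline on the y axis, and the dashed line marks equal folds. Of the higher genes 712 of 755 lie above 0 on the y axis and of the lower genes 568 of 593 lie below it, and circles mark the 6 genes whose difference between the steps was called.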

How the data were processed

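Stranded total RNA sequencing of sorted cells gave 12 libraries (6 groups of 2), sequenced paired-end as 1 pool, per the labels' protocols. Reads were trimmed with Trimmomatic 0.32, mapped to mm10 with HISAT2 2.1.0 and assembled with StringTie 1.3.3, tools named in the submitters' processing notes. The annotation stays not given in the sources used here, as does the strand setting, so overlapping and antisense genes may share reads. The deposited values were taken to be FPKM, from the tool named and because library sums differ; they carry no header and no counts, so absolute depth is unknown and every value is relative to its library's total. Values of 2 to 4 repeated names per file were added, giving 35976 names.

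The 13316 genes that reached 1 FPKM in 2 or more libraries were tested on log2(FPKM + 1) with limma 3.58.1 in R 4.3.3 (empirical Bayes with trend, 6 group means over all libraries, two-sided, Benjamini-Hochberg over all tested genes, called at an adjusted p below 0.05). The contrasts were HE2 minus HE1 without doxycycline, the same with doxycycline, their difference, and HP minus HE2. In simulated data with 200 changed genes, the fit recovered 62% of 2-fold and 98% of 4-fold changes for HE2 against HE1, with 14 false calls. The simulation used independent noise of the fitted size and changed only genes with a mean of at least 5 FPKM. It held no library that departs from the others, so these shares do not cover low genes or such libraries. Gene coordinates and promoters came from RefSeq (GRCm38.p6), where 32501 of the names matched.

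Named genes were the 15 largest rises and falls among called genes with a mean of at least 5 FPKM in a group and no overlap, up to 4 called members of each of 33 gene lists, and Runx1, Mecom, Kit, Tek, Itga2b, Cdh5, Kdr, Gfi1, Gfi1b, Spi1 and Ptprc. Predicted and small RNA genes (76 of the called) were counted, not named, and some named genes are not reported here. The members and lists were chosen with earlier results of these data known, and the genes Gata2, Tal1, Lmo2, Fli1, Meis1, Sox17, Notch1, Dll4, Yap1, Tead4, Wwtr1, Cdk6, Pcna, other list members given with their fold, and the imprinted genes were chosen after their values were seen. Promoters were matched for under 80% of the tested genes, so shares of motifs in called genes were not compared. Alternatives were the pseudocount (0.1), the filter, quantile normalization, median scaling, and removal of 3 dominant features with rescaling of every library to the same total. Further ones were a term for libraries high in Lars2 (over 1000 FPKM), fits of 4 or 8 libraries, a replicate block and leaving out each library. A fit of the 7 libraries low in Lars2 was added after seeing the data.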

Additional observations from a re-analysis of the deposited data

Results flagged for a closer look

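The change from HE1 to HE2 differed between the series with and without doxycycline in 6 genes, by a test of the difference itself (limma, adjusted p = 0.0397 for each). Positive values mean a larger rise with doxycycline. The differences on the log2(FPKM + 1) scale were 3.96 for Il1b (SE 0.545), 2.67 for Ptprc (SE 0.384), 2.16 for Naaa, a lysosomal amidase (SE 0.285), 1.80 for Rhag, a membrane protein of red cells (SE 0.261), 1.69 for Ctsj, a cathepsin (SE 0.237), and −2.06 for Tirap (SE 0.267). Rhag and Ctsj were below 5 FPKM in every group and are named after their values were seen. Ctsj was listed at 0 in all 4 HE libraries without doxycycline, read 0.0503 and 0 FPKM in HE1 with it, and reached 2.19 and 2.41 FPKM in HE2 with it. Among these groups Ctsj, Il1b and Rhag met the filter of 1 FPKM only where they were high, so their calls are given as descriptions. Naaa had 1.33 and 1.44 FPKM in HE1 and 7.55 and 6.58 FPKM in HE2 with doxycycline, and stayed under 1 FPKM without. Tirap lost its call in the 12 fits that left out a library (adjusted p-values of 0.0591 to 0.217), with the pseudocount 0.1, with no filter and in the 8 HE libraries. It kept its call under quantile normalization, median scaling, removal of the 3 dominant features and the library term, at adjusted p-values of 0.00561 to 0.0468. Ptprc kept its call in 1 of the 12 fits that left out a library, Il1b in 2, and Naaa, Rhag and Ctsj in 0.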

How the results depend on the processing

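The number of genes called in the step, 1348, was 833 with no filter on low values (24684 genes tested), 2122 after quantile normalization, 2025 after median scaling, 548 in a fit of the 4 libraries alone and 53 in the 7 libraries low in Lars2, a fit with 1 residual degree of freedom. Leaving out 1 library gave 262 to 1424, with the lowest count without HE1 replicate 2. The labels do not say that replicate numbers mark a shared source, and differences between replicates correlated at −0.1 to 0.526 over pairs of groups (0.322 for HE1 and HE2). The fit with a replicate block called 3126 genes, among them 11 of 29 named genes not called without it, including Cdh5, Kdr, Dll4, Sox17, Acta2, Kit and Ptprc. The median log2 ratio, 0.162, was 0.0089 with no filter, 0.0307 after quantile normalization, 0.0281 after median scaling and −0.0224 with the 3 features removed. The 6 differences between the steps numbered 0 with the pseudocount 0.1, 10 after quantile normalization, 1 after median scaling, 2 without the 3 features, 1 with the library term, 2 in the 8 HE libraries and 47 with the replicate block, and 0 to 4 when 1 library was left out. Of 137 named and called genes, 137 kept call and direction with the block, 135 with median scaling or quantile normalization, 124 with the pseudocount 0.1, 78 with no filter, 101 without HE1 replicate 1, 52 without HE1 replicate 2, 62 without HE2 replicate 1, 124 without HE2 replicate 2, and 23 in the 7 libraries, and 0 reversed. Of genes not called, Gata2 turned to −0.005 with the 3 features removed, and Erg ranged from −0.566 to 0.065, positive without HE2 replicate 1. Apart from the sizes of the fits, the cause of these changes was not tested. With no counts, the precision of low values is unknown.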

Other observations

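A group of imprinted genes, expressed from 1 parental copy and known for roles in embryonic growth, was lower in HE2. The list was drawn up after values were seen and is no independent evidence of a direction. Of 23 genes listed, 20 were tested, 9 were called lower and 0 higher, and the median log2 fold change was −0.64, beside 0.16 for all genes. Of all tested genes 4.45% were called lower and 10.1% in either direction. The number called lower was 6 without HE1 replicate 1, 3 without HE1 replicate 2, 4 without HE2 replicate 1 and 8 without HE2 replicate 2, and Peg3, Mest, Igf2, H19, Plagl1 and Zim1 lost their calls without HE1 replicate 2. Rian, Meg3 and Mirg, transcripts of the Dlk1-Dio3 region of chromosome 12, all called in the 12 fits that left out 1 library, moved together. Of these, Rian had 105 and 107 FPKM in HE1 and 20.6 and 36.8 FPKM in HE2 (−1.91, SE 0.241, adjusted p = 0.000758). Meg3 had 63.2 and 57.4 FPKM in HE1 and 13.6 and 21.2 FPKM in HE2 (−1.77), and Mirg fell by 1.60. Peg3, a zinc finger gene, had 499 and 653 FPKM in HE1 and 103 and 226 FPKM in HE2 (−1.89, SE 0.347, adjusted p = 0.00638). Mest, the most abundant of them, had 2499 and 2985 FPKM in HE1 and 1001 and 1687 FPKM in HE2. Igf2 had 642 and 580 FPKM in HE1 and 338 and 286 FPKM in HE2, and its neighbour H19 had 331 and 266 FPKM and then 175 and 140 FPKM. Plagl1 and Zim1 fell by 1.37 and 1.32. All 9 were lower still in the HP libraries, where Rian had 2.96 and 3.37 FPKM.

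Several of the largest differences by size were not called. LOC108167755 read 1796 FPKM in HE1 replicate 1 and 0 in the other 3 libraries, and Lars2 had a fold of −3.77, with the same library high. Rps16 had 560 and 95.1 FPKM in HE1 and 739 and 674 FPKM in HE2, a fold of 1.61 that no other cytosolic ribosomal protein gene approached, and HE1 replicate 2 was the low one. Ccl2 had 11.5 and 42.5 FPKM in HE1 and 1.02 and 6.45 FPKM in HE2 (−2.59, adjusted p = 0.0716).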
